A study of Mus musculus with 16 samples.

Results

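The promoters of 8 mouse genes of hepatic fatty acid oxidation and ketogenesis were followed in Promoter Capture Hi-C (P-CHi-C) of the liver: Ppara, Cpt1a, Cpt2, Ehhadh, Hadha, Pdk4, Acadm and Fgf21. P-CHi-C cuts crosslinked chromatin with the restriction enzyme HindIII, ligates ends that lie close together and captures the products that hold a promoter fragment, called a bait. An interaction was counted for a gene when one of its ends was the bait fragment holding the start of that gene. The start of 7 of the 8 genes lay on a bait, and these 7 baits took part in 91 of the 247177 distinct interactions and were 7 of the 18165 baits in the data. Livers came from wild-type male C57BL/6 mice with a labelled age of 8 weeks. By the study's methods, mice of that age were first kept for 2 weeks under 12 h of light and 12 h of dark, with food ad libitum. Livers were taken at ZT0 (lights on), ZT6, ZT12 (lights off) and ZT18, where ZT counts hours since lights on. Each timepoint had 3 pools of 2 livers, with pool A sequenced on 2 lanes, which gave 16 samples. Interactions were called on the merged pools, which left 1 list for each timepoint. No value therefore had a replicate error, and no difference between timepoints could be tested. Contact lists hold no expression values, so the tissue label was not checked against liver marker genes.

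Interactions were scored by CHiCAGO, software that asks how far the reads of a pair exceed a background set by distance and noise. No listed score was under 5, and a pair below that is absent, which is no measurement of a missing contact. By the labels, the list sizes were 146262 (ZT0), 154775 (ZT6), 151529 (ZT12) and 151347 (ZT18) interactions. A summary given with the study puts the last 3 totals under other timepoints (154775 at ZT18, 151529 at ZT6 and 151347 at ZT12). The sample labels were followed throughout. In the other order, every value given below for ZT6 would belong to ZT18, that for ZT12 to ZT6 and that for ZT18 to ZT12. Which order is right was not settled here, so no timing below is firmer than the labels. A contact below means 1 distinct fragment paired with a bait at any timepoint, and a listing means that contact at 1 timepoint.

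In the fasted liver, fatty acids are carried into mitochondria by the carnitine shuttle, shortened by beta-oxidation and turned into ketone bodies. Ppara encodes the nuclear receptor that, paired with RXR, switches on most genes of this pathway through direct repeats of a hexamer with 1 base between them (DR1), and Fgf21 encodes a fasting hormone among its targets. Cpt1a and Cpt2 encode the outer and inner carnitine palmitoyltransferases, Acadm the medium-chain acyl-CoA dehydrogenase, Hadha the alpha subunit of the trifunctional protein, Ehhadh a peroxisomal bifunctional enzyme and Pdk4 a kinase that shuts off pyruvate dehydrogenase.

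The DNA at these starts is shown first for the 4 genes in which the motif search or the contacts gave most to describe. Each window ran from 250 bases before to 50 bases after the start of the gene record in mm9, 5′ to 3′ on the strand of the gene, and capitals mark motif matches. Searched on both strands were the hexamer AGGTCA, the DR1 AGGTCANAGGTCA with no or up to 2 mismatches outside the spacer, and the E-box CACGTG, the site of clock factors such as BMAL1 and CLOCK.
Fgf21 (chr7:52870811-52871110, - strand): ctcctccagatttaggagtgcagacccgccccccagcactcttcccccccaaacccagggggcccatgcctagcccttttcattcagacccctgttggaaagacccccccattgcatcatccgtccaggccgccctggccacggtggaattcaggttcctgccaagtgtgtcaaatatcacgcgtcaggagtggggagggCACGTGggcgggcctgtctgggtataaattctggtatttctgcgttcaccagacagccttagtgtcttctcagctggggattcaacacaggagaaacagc
Cpt1a (chr19:3323051-3323350, + strand): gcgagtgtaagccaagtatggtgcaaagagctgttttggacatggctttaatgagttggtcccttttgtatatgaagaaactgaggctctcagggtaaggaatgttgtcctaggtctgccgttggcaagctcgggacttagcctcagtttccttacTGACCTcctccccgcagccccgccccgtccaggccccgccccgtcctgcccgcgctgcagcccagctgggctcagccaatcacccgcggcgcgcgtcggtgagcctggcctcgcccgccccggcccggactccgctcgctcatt
Hadha (chr5:30481653-30481952, - strand): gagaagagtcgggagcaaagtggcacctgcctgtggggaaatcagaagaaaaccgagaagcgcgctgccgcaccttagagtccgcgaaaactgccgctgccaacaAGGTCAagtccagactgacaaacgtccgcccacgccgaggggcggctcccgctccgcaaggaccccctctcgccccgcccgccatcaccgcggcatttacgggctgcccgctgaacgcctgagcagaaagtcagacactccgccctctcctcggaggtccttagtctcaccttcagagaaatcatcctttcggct
Ppara (chr15:85565163-85565462, + strand): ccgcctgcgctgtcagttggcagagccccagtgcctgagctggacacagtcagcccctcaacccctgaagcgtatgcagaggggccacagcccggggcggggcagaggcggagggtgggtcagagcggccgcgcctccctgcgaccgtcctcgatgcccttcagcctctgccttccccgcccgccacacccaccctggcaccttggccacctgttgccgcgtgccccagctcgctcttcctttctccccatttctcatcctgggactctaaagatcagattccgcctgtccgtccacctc

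The Fgf21 window held an E-box at positions -50 to -45 from the gene start, the only E-box in the 8 windows. Cpt1a had 1 hexamer on the reverse strand at -94 to -89, and Hadha had 1 on the forward strand at -145 to -140. None of the motifs was found in the windows of Ppara, Cpt2, Ehhadh, Pdk4 and Acadm, and the DR1 was in none of the 8, even with 2 mismatches. Of 37303 windows at all gene starts, 15.1% held the hexamer, 6.21% the E-box, 0.0617% a perfect DR1 and 3.42% a DR1 with up to 2 mismatches.

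Over the 4 timepoints Fgf21 had most contacts, 32, followed by Ppara with 23, Cpt1a with 12, Pdk4 with 11, Acadm with 10, Hadha with 2 and Ehhadh with 1. The median bait had 9 contacts with quartiles of 4 and 21. A captured fragment never listed as a bait is not among these, so the ranks are among promoters with contacts. Fgf21 exceeded 85.8% of all baits and Ppara 77.2%, whereas Cpt1a, Pdk4 and Acadm lay between 51.5% and 57.6% and Hadha exceeded 8.87%. The order of the contacts was not the order of the bait lengths. Fgf21, with most contacts, had a bait of 2700 bp, and 17.6% of all baits were shorter. Ehhadh, with fewest, had one of 16072 bp, and 94.3% were shorter. All 91 contacts lay on the chromosome of their promoter, at a median distance of 87.9 kb between fragment midpoints against 162 kb over all interactions.

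The 7 promoters together had 49 contacts in the ZT0 list, 57 in that of ZT6, and 68 both at ZT12 and at ZT18. Per 100000 interactions of the list these were 33.5, 36.8, 44.9 and 44.9. In the order of the study's summary the counts would read 49, 68, 68 and 57. The promoter that differed most between timepoints was Ppara, with 6, 9, 17 and 19 contacts at ZT0, ZT6, ZT12 and ZT18. Most of the excess of the ZT12 and ZT18 totals over those of ZT0 and ZT6 came from Ppara alone. Fgf21 had 19, 24, 26 and 24, lowest at ZT0. Cpt1a stayed at 9, 10, 10 and 9, Pdk4 at 8, 8, 7 and 11, and Acadm at 6, 6, 5 and 5. Hadha was listed with 1 contact at ZT0 and 2 at ZT12, and Ehhadh with 1 at ZT12. Of the 5 promoters with at least 10 contacts, Ppara and Pdk4 had most at ZT18 and Fgf21 at ZT12, while Cpt1a was tied between ZT6 and ZT12 and Acadm between ZT0 and ZT6. In the order of the study's summary, Ppara and Pdk4 would have most at ZT12 and Fgf21 at ZT6, with Cpt1a tied between ZT6 and ZT18 and Acadm between ZT0 and ZT18. Over all 8819 baits with at least 10 contacts the highest number fell at ZT0 in 16.0%, ZT6 in 25.4%, ZT12 in 20.9% and ZT18 in 20.4%, with ties in 17.3%. The last 3 of these shares move between timepoints in the same way.

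**Figure D1:**
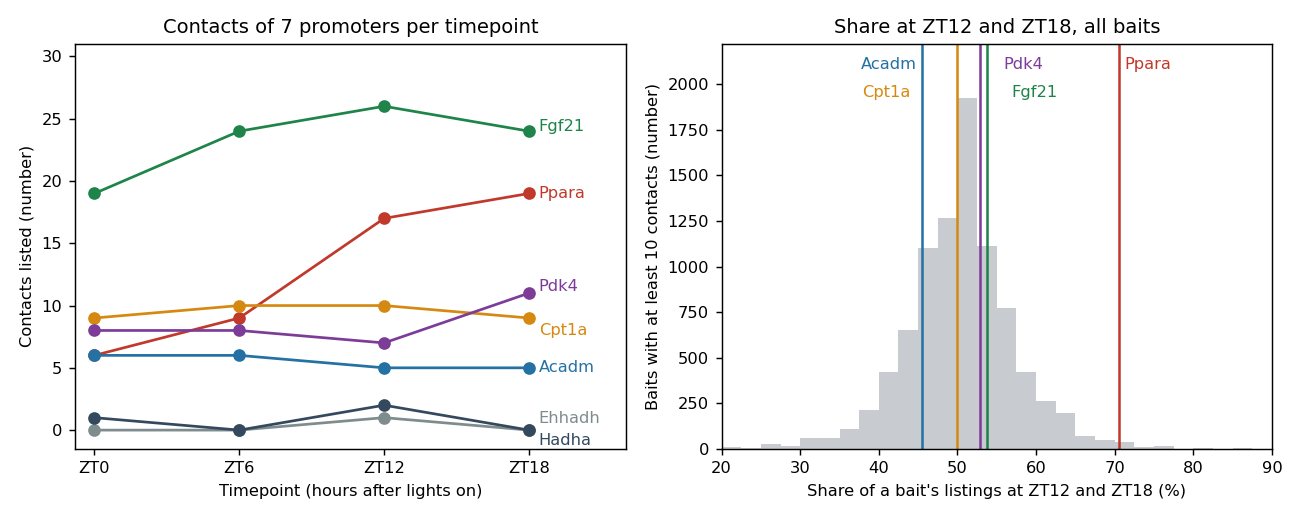
Left, number of contacts listed for the 7 promoters at each timepoint. Right, histogram of the share of a bait's listings that fell at ZT12 and ZT18 (%) over the 8819 baits with at least 10 contacts, with a line for each of 5 promoters. By the labels Ppara lies at 70.6%, in the upper tail, and the other 4 lie between 45.5% and 53.8%. By the summary's order it would lie at 54.9%.

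The Ppara promoter sat on the fragment at chr15:85564704-85575274, which holds no other gene start. Of its 51 listings, 36 or 70.6% (95% Wilson interval 57 to 81.3%) were at ZT12 and ZT18, a share above that of 99.3% of the 8819 baits, whose quartiles were 46.5% and 54.1%. Of these baits, 1.68% had at least 2 times as many listings at ZT12 and ZT18 as at ZT0 and ZT6, and 1.81% had the reverse. Ppara was the 1 member among the 5 to pass either limit. At a score of at least 7 the count of its contacts was 2, 2, 9 and 11 at ZT0, ZT6, ZT12 and ZT18. Taking the same number of top-scoring pairs from each list left 6, 7, 17 and 17. In the order of totals of the study's summary the same 4 lists read 6, 17, 19 and 9, with 54.9% at ZT12 and ZT18. None of the 5 members then passes either limit, against 1.35% and 0.612% of the 8819 baits, so the timing of the high counts changes with that order, while the spread between lists does not.

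All but 1 of the 23 Ppara contacts lay downstream of its bait, and 18 lay downstream within 100 kb. Inside the 67.8 kb gene itself 10 fragments were contacted, with 4, 7, 10 and 8 of them listed at ZT0, ZT6, ZT12 and ZT18. Beyond the gene the numbers were 2, 2, 7 and 11. Ppara thus had 43.5% of its contacts inside its own gene, more than 88.2% of 942 protein-coding genes of 50 to 100 kb with at least 10 contacts, for which the median was 7.14%. The highest score belonged to a fragment 35.1 kb downstream that holds a Ppara exon, with 7.63, 10.1, 10.5 and 11.95 at the 4 timepoints. Next was an intronic fragment at 28.8 kb with 6.74, 7.76, 10.1 and 9.99, and after it an intergenic fragment at 88.7 kb listed only at ZT12 with 9.85 and ZT18 with 7.94. The promoter of Ttc38, 92.5 kb away, was the 1 gene start contacted at all 4 timepoints, with 7.39, 5.03, 7.25 and 9.31. In all 5 Ppara contacts present at every timepoint the score was higher at ZT18 than at ZT0, with medians of 6.74, 6.28, 8.66 and 9.31 at the 4 labelled timepoints. With the other order this compares ZT12 with ZT0. Over the 80235 interactions listed at all timepoints the score was higher at ZT18 than at ZT0 in 54.1%.

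Of the 23 Ppara contacts, 13 were listed at neither ZT0 nor ZT6, 8 of them at ZT12, 11 at ZT18 and 6 at both. By the summary's order 5 contacts were at neither ZT0 nor ZT6. The scores of the 13 ran from 5 to 9.85. Among them were the promoters of 2210021J22Rik at 73.4 kb (6.04 at ZT12 and 5 at ZT18), Gtse1 at 123 kb (5.11 at ZT18) and Trmu, a tRNA-modifying enzyme, at 138 kb (5.14 at ZT12). One contact, the promoter of Pkdrej at 82.6 kb, was listed at ZT0 alone, with 6.58. Many of these ends lie side by side: joined where they lay within 10 kb of the next, the 23 contacts made 7 regions, with 2, 3, 5 and 7 listed at the 4 timepoints and 2 present at all. The bait most like Ppara in the fragments it contacted was that of Pkdrej, with 7 shared fragments, 30.4% of either promoter's 23 (Jaccard index 0.179).

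Because the PPARA protein binds DR1 elements, the 23 contacted fragments were also searched for AGGTCANAGGTCA with at most 1 mismatch outside the spacer, and 5 held 1 match each, none of them perfect. They are shown with 20 bases on either side, 5′ to 3′ on the strand of the match, with the match in capitals.
Ppara contact (chr15:85578340-85578392, + strand): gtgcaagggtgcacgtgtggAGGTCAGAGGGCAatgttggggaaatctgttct
Ppara contact (chr15:85589908-85589960, - strand): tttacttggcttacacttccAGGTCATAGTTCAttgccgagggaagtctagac
Ppara contact (chr15:85596248-85596300, - strand): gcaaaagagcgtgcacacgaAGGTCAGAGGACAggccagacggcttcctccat
Ppara contact (chr15:85618019-85618071, - strand): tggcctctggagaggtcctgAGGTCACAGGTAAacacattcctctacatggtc
Ppara contact (chr15:85663363-85663415, - strand): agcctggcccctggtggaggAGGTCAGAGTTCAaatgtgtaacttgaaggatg

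In the order shown these fragments lay 10.9, 19.8, 28.8, 46.7 and 93.5 kb downstream of the bait, the first 4 inside Ppara and the last inside Ttc38. Among all HindIII fragments of mm9 within 10% of their lengths, 14.2%, 12.4%, 9.50%, 17.8% and 1.26% held such a match. For the Ppara contacts without a match the like shares ran from 0.311% to 32.0%. The fragments shown were picked by their match, so their shares alone are no background for how many were found. A sum of the shares over the Ppara contacts alone is not given here, so the number found has no background beside it. Such a sum is given below only for the contacted fragments of all members together. Repeated sequence was not masked in this search either. Such a match is a description of the sequence, and whether any factor binds there was not measured.

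Cpt1a, the enzyme that commits fatty acids to mitochondrial oxidation, had its start on chr19:3321498-3326845. Of its 12 contacts, 8 lay inside the 62.4 kb gene, in an unbroken run of neighbouring fragments between 17.0 and 44.2 kb downstream. That share of 66.7% was above the share of 97.0% of the genes of 50 to 100 kb. The strongest contact, at 31.4 kb on a fragment holding a Cpt1a exon, scored 11.3, 9.63, 13.6 and 17.6 at ZT0, ZT6, ZT12 and ZT18. An intronic fragment at 36.9 kb followed with 8.33, 11.6, 9.42 and 11.3. Below these by score was the promoter shared by Ighmbp2, a helicase, and Mrpl21, a mitochondrial ribosomal protein, 41.4 kb upstream, with 9.17 at ZT0, 6.42 at ZT12 and 6.21 at ZT18 and no listing at ZT6. A pair of intergenic fragments at 126 and 128 kb was listed at 3 timepoints each, with scores between 6.11 and 7.80.

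While the number of Cpt1a contacts barely differed between timepoints, 50% of its 38 listings falling at ZT12 and ZT18 (34.8 to 65.2%), the scores were not level. All 5 contacts present at every timepoint scored higher at ZT18 than at ZT0, and their medians were 6.38, 6.98, 8.34 and 8.84. In the order of the study's summary the last 3 medians would belong to ZT18, ZT6 and ZT12. By the labels, 54.1% of all interactions listed at every timepoint scored higher at ZT18 than at ZT0. The 5 are neighbouring fragments, and the one at 40.0 kb differed little, with 6.2 at ZT0 and 6.35 at ZT18. Of the Cpt1a contacts 41.7% (5 of 12, 19.3 to 68.0%) were listed at all timepoints. The most similar bait, at 168 kb and holding the start of a U6 gene, shared 5 fragments, 41.7% of those of Cpt1a and 15.2% of its own 33.

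One Cpt1a fragment held the most DR1 matches of the contacted fragments. The fragment at 23.5 kb (chr19:3341417-3353974), with scores of 5.81, 6.98, 8.34 and 8.84, held 4 DR1 matches, 2 of them perfect, and 19.5% of mm9 fragments of like length held at least 1. How many of these held 4 is not given here. Repeated sequence was not masked in the search, and binding to the matches was not measured. No other fragment contacted by the 7 promoters held more than 2, and 13 of the 92 contacted fragments, counting that of Cpt2, held any. The shares of like-length fragments with a match summed to 7.08 over the 92. A perfect match also lay in an Fgf21 contact, the fragment 83.8 kb downstream with the starts of Ppp1r15a and Plekha4. Matches in contacts of Fgf21 and Hadha are not shown. The 4 Cpt1a matches are shown as above, in genome order, and the first and the third have 1 mismatch.
Cpt1a contact (chr19:3341460-3341512, + strand): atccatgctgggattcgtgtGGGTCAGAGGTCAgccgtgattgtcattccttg
Cpt1a contact (chr19:3341987-3342039, + strand): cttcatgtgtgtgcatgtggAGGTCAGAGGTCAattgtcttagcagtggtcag
Cpt1a contact (chr19:3348601-3348653, + strand): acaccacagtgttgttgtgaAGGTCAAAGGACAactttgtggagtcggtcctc
Cpt1a contact (chr19:3351909-3351961, - strand): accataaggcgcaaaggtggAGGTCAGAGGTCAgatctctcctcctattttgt

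**Figure D2:**
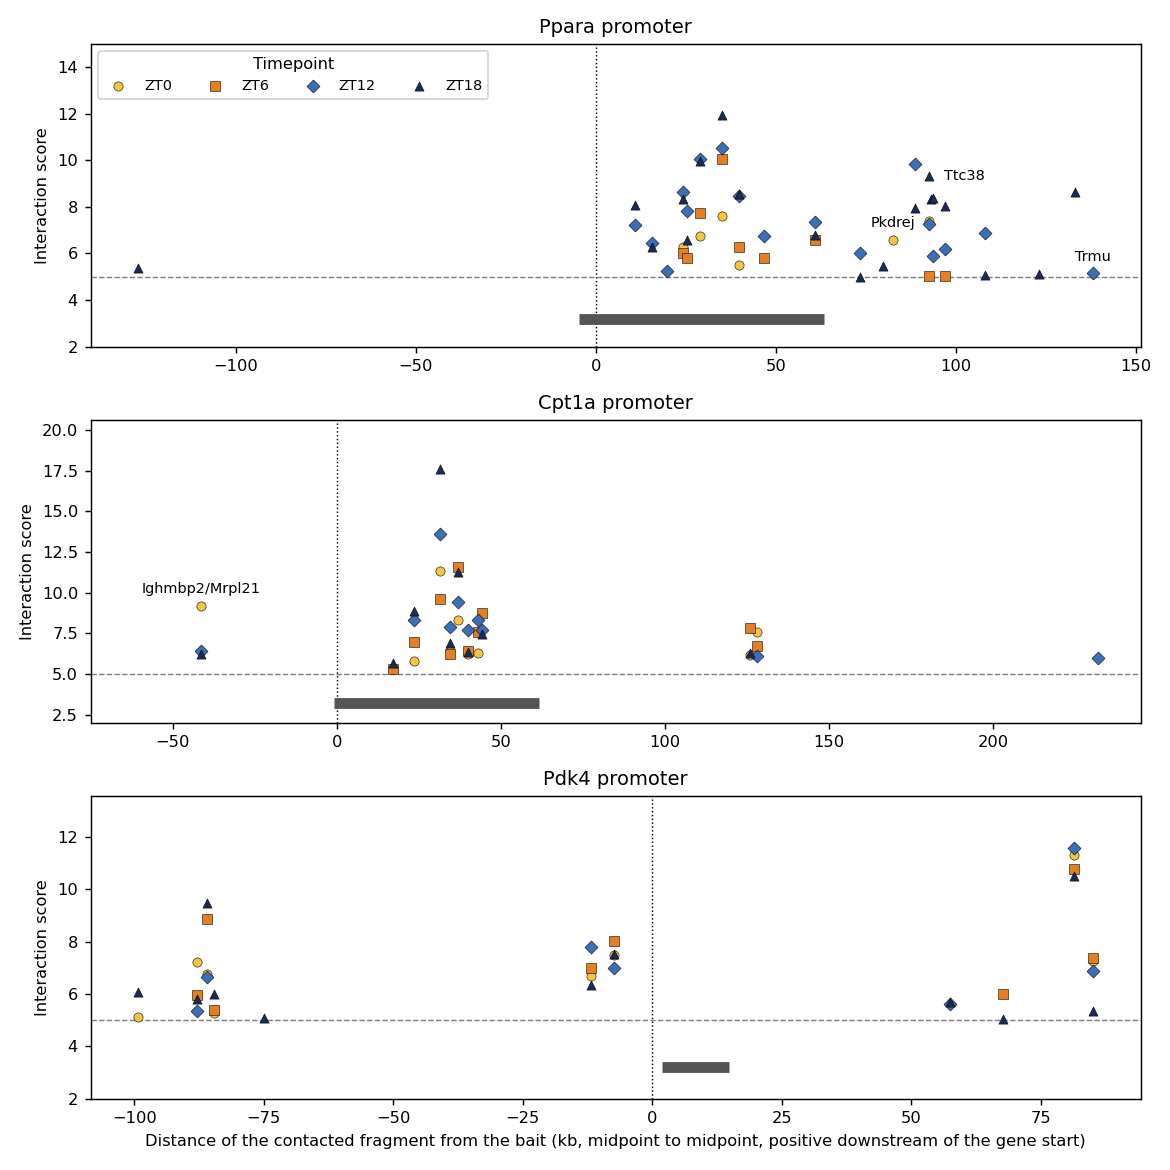
Interaction score of each contact of the Ppara, Cpt1a and Pdk4 promoters against its distance from the bait (kb, positive downstream), with a symbol for each timepoint. The dotted line is the bait, the dashed line the lowest listed score of 5 and the grey bar the gene. Ppara and Cpt1a contacts lie mostly inside the gene or downstream of it, and those of Pdk4 lie on both sides of it.

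For Pdk4, whose product spares glucose by blocking pyruvate oxidation, the bait at chr6:5443020-5453461 had 11 contacts and no other bait among them. The 189 kb they span, a stretch set by the contacts themselves, hold 77 other HindIII fragments and no bait. The bait of Asb4, 114 kb away, lies outside that span and was not listed with Pdk4. Contacts formed 3 groups: 5 fragments between 74.9 and 99.2 kb upstream, 2 at 7.33 and 11.9 kb upstream, and 4 between 57.4 and 85.1 kb downstream. None overlapped Pdk4 itself. The strongest was a fragment in an intron of Asb4, 81.5 kb downstream, with 11.3, 10.8, 11.6 and 10.5 at ZT0, ZT6, ZT12 and ZT18, a narrow range. It was followed by an intergenic fragment 85.9 kb upstream with 6.76, 8.86, 6.67 and 9.49 and another at 7.33 kb upstream with 7.50, 8.04, 7.01 and 7.55. Pdk4 had the highest share of contacts listed at all timepoints among the 7 promoters, 54.5% (6 of 11, 28.0 to 78.7%), an interval that overlaps those of the other members with 10 or more contacts. Of these 6, 2 scored higher at ZT18 than at ZT0. The most similar bait was that of Asb4, 114 kb away, which shared 3 fragments, 27.3% of those of Pdk4 and 2.91% of its own 103.

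Among the enzymes of beta-oxidation, Acadm had its start on chr3:153606855-153614903 and 10 contacts, and it held the highest score of all 91. That was the promoter of Msh4, a meiotic mismatch repair gene 41.6 kb downstream, with 35.1, 31.5, 34.9 and 28.5 at ZT0, ZT6, ZT12 and ZT18. The promoter of Rabggtb, a subunit of the enzyme that prenylates Rab proteins, lay 34.8 kb downstream and scored 12.4, 18.4, 13.5 and 14.1. A contact 648 kb upstream with the promoter shared by Tyw3 and Cryz was also present throughout, with 9.79, 5.12, 5.64 and 5.21. These 3 were the contacts of Acadm listed at all timepoints, 30% of its 10 (10.8 to 60.3%), and each joined it to another bait.

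The furthest contacts of the set belonged to Acadm as well. Pigk, a subunit of the GPI transamidase, 1235 kb downstream, was listed at ZT0, ZT6 and ZT12 with 5.81, 7.65 and 5.79. The promoter shared by Fpgt and Lrriq3 lay 1145 kb upstream and was listed once, at ZT6, with 7.54. Slc44a5, 24.8 kb upstream, was listed at ZT0 with 6.29 and at ZT18 with 7.10. The start of Asb17, 103 kb downstream on a fragment that is no bait, was listed at ZT0 alone with 8.39. In the 2382 kb spanned by these contacts, 8 of 735 other fragments were baits, 1.09%, and 6 of the 8 were contacted. The span was set by the outermost contacts, which were themselves baits, so this share is no background for the 6. Rabggtb was also the most similar bait, sharing 6 fragments, 60.0% of those of Acadm and 66.7% of its own 9.

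Hadha, Ehhadh and Cpt2 gave too few listings for any comparison between timepoints. The bait of Hadha, chr5:30478713-30483756, also holds the start of Hadhb, which encodes the other subunit of the trifunctional protein, and contacts of the pair cannot be told apart. It was joined to a fragment 16.1 kb upstream of Hadha, inside Hadhb, with the start of Mir1960, at ZT0 with 5.57 and at ZT12 with 6.02. Its other contact was the promoter of Ccdc164 at 125 kb, at ZT12 with 5.02, just above the score minimum. Ehhadh shared the fragment chr16:21784316-21800387 with the noncoding gene 1300002E11Rik, and its 1 contact was the promoter of Senp2, a SUMO protease, 219 kb upstream, at ZT12 with 6.48.

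With overlaps of 1 fragment each, the baits most similar to Hadha and Ehhadh were those of 1700001C02Rik and Tmem41a. The start of Cpt2 lay on chr4:107587403-107606535, a fragment of 19133 bp that was no bait in any list. It appeared once, as the other end of the bait of Podn, an extracellular matrix protein, 108 kb upstream, at ZT18 with a score of 7.06. No contact could therefore be counted from the Cpt2 promoter itself, and these lists say nothing of how many it has.

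Fgf21, the hormone of the set, had the most contacts and the most contacts of high score. Its bait, chr7:52868997-52871696, holds the whole gene. Of its 32 contacts, 12 reached a score of 10, against 7 of the other 59. Over all interactions 21.5% did, and 20.9% over the contacts of the 7 promoters. All 32 were with other baits, and the share for interactions between baits alone is not given here. The highest was the promoter of Izumo1, a sperm protein, 7.03 kb upstream, with 25.9, 24.1, 25.4 and 32.7 at ZT0, ZT6, ZT12 and ZT18. Mamstr, a coactivator of MEF2 factors, at 24.3 kb upstream, scored 27.3, 27.6, 25.1 and 25.9, with all 4 values within a narrow range. Hsd17b14, a hydroxysteroid dehydrogenase, at 59.9 kb downstream, scored 13.6, 23.4, 17.3 and 22.7. Bcat2, which starts the breakdown of branched-chain amino acids in mitochondria, lay 44.6 kb downstream and scored 19.5, 15.7, 17.6 and 18.2.

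Of 13 core clock and clock output genes looked for at the contacted fragments, 1 was found. How many other baits are listed with any of the 13 is not given, so that count has no background beside it. That was Dbp, a transcription factor under direct control of the clock, 89.8 kb upstream of Fgf21, listed at all timepoints with 8.99, 11.5, 14.7 and 11.3. Its score was highest at ZT12 and lowest at ZT0 by the labels. With the totals of the study's summary the value of 14.7 would belong to ZT6.

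Of the Fgf21 contacts 46.9% (15 of 32, 30.9 to 63.6%) were listed at all timepoints. Besides those named, they joined it to the promoters of Ruvbl2, an ATPase of chromatin remodelling complexes (15.2, 15.7, 15.4 and 15.5), Ppfia3 (10.7, 17.8, 5.48 and 12.0), Cyth2 (12.0, 12.4, 6.94 and 11.8) and Sphk2 with Rpl18 (11.1, 5.81, 9.60 and 7.57). Ruvbl2 was the most level of these, and Ppfia3 the least. The remaining 6 were the promoters of Car11, Fut2, Ppp1r15a with Plekha4, Dkkl1, Aldh16a1 with Pih1d1, and a SNORA67 gene, with highest scores between 8.89 and 9.93. Across all members, 3 contacts reached 10 without being listed at every timepoint, all of them of Fgf21. They were Bax, a cell death protein, with 10.3, 7.09 and 12.9 at ZT6, ZT12 and ZT18, Mir150 with Snord35b, with 7.22, 14.03 and 5.60 at the same timepoints, and Cd37, with 11.0 at ZT6 and 5.68 at ZT12. Glycogen synthase Gys1, 182 kb downstream, was listed at ZT6, ZT12 and ZT18 with 6.57, 8.07 and 9.62.

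**Figure D3:**
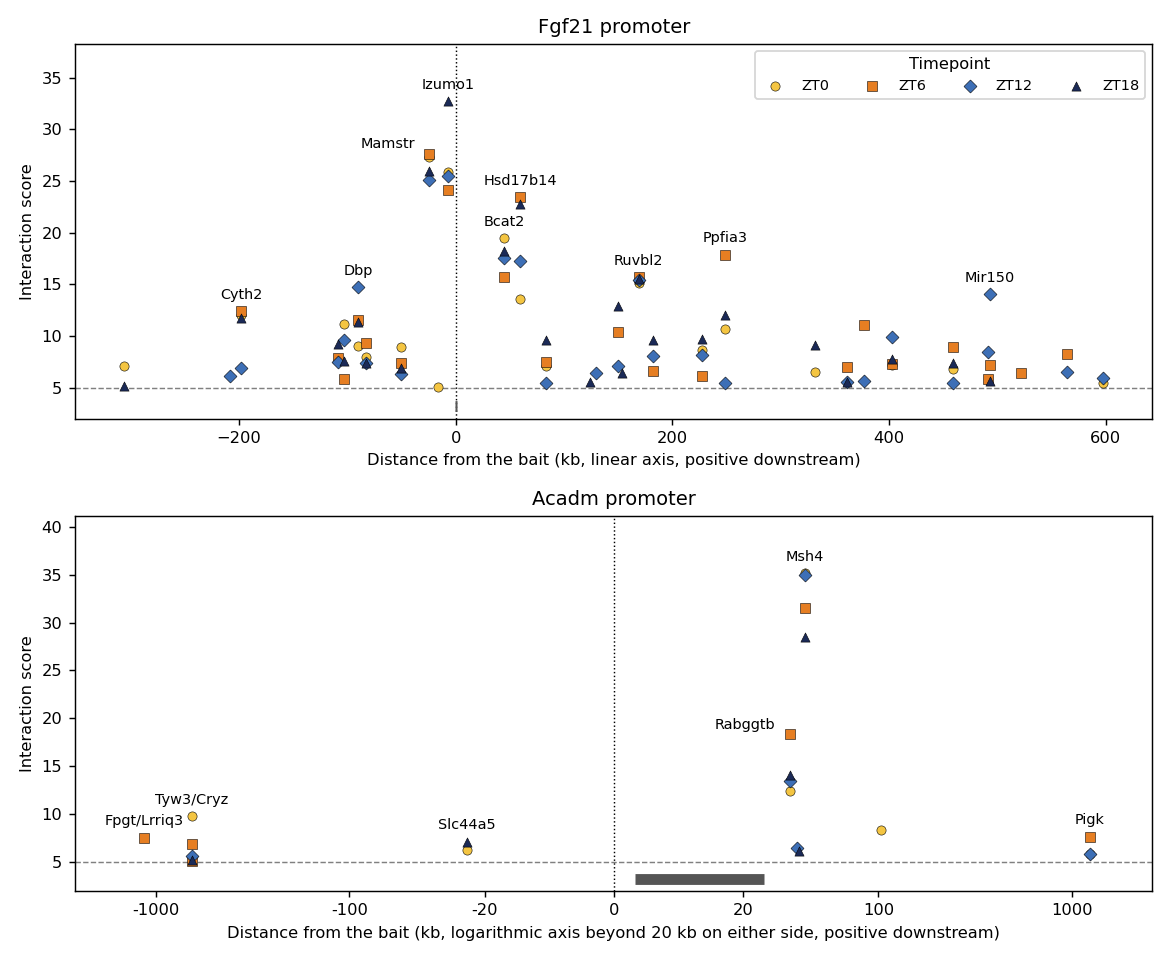
Interaction score of each contact of the Fgf21 and Acadm promoters against its distance from the bait (kb, positive downstream), with a symbol for each timepoint and the genes starting at the stronger ends. The dotted line is the bait, the dashed line the lowest listed score of 5 and the grey bar the gene. Dbp, upstream of Fgf21, is highest at ZT12 with 14.7, and the Msh4 contact of Acadm reaches 35.1.

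All 32 Fgf21 contacts were with other baits, and no fragment without a bait was listed with it at any timepoint. In the 906 kb they span, 52 of 207 other HindIII fragments, 25.1%, were baits. That span, too, was set by the contacts themselves. Of 4811 baits with at least 20 contacts, 0.811% had contacts with other baits alone, and of all 18165 baits 14.1% did, including those of Hadha and Ehhadh. How efficiently each bait was captured was not tested, and the absence of fragments without a bait from the Fgf21 contacts may not be read as their absence from its surroundings. Without Fgf21, 15 of 59 contacts of the members were with another bait, 25.4% (16.1 to 37.8%), and with it 47 of 91, 51.6% (41.5 to 61.6%), against 15.4% of all interactions. Ppara had 5 contacts with another bait of 23, Cpt1a 1 of 12, Pdk4 0 of 11 and Acadm 6 of 10. The bait most like Fgf21 was that of Snrnp70, 220 kb away: all 19 of its contacts were among the 32 of Fgf21, 59.4% of the latter (Jaccard index 0.594).

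Over the 7 promoters 34 of 91 contacts, 37.4% (28.1 to 47.6%), were listed at all 4 timepoints, near the 32.5% of all interactions. Another 15 were listed at 3 timepoints, 19 at 2 and 23 at 1. Ppara had the lowest share of the 5 members with at least 10 contacts, 21.7% (5 of 23, 9.66 to 41.9%). When another contact of the same promoter within 10 kb was accepted as the same end, 60.4% of the 91 were found at every timepoint. Of the 19 contacts that reached a score of 10, 16 were listed at all timepoints. The 32.5% covers interactions of every score, and no such share is given here for all interactions that reached 10. That count therefore has no background beside it. The intervals cover counting error only, and neither the contacts of 1 promoter nor the listings of 1 contact are independent of each other.

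The members did not contact each other, nor any other promoter of the pathway list. Each member lies on a chromosome of its own, and every contact counted stayed within a chromosome. Contacts between members could therefore hardly be listed, and their absence says nothing about the pathway. Hadhb, which is in the list, starts on the Hadha bait and could not be listed as its contact. How often other promoters contact the list was not tested. This list named 51 further genes of fatty acid uptake, oxidation, ketogenesis and their regulation, and 47 of them had a bait at their start. Acacb, Etfa, Pex11a and Cyp4a10 had none. Among the 47, 2 pairs were joined: the peroxisomal thiolases Acaa1a and Acaa1b, 185 kb apart, at ZT0 with 5.58 and ZT6 with 6.44, and Echs1 with Sirt3, 768 kb apart, at all timepoints with 6.09, 7.26, 5.99 and 7.44. Echs1 encodes the enoyl-CoA hydratase of mitochondria and Sirt3 a mitochondrial deacetylase.

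The 47 promoters had 821 contacts, from 1 to 71 with a median of 14, and 34.2% (31.1 to 37.5%) were listed at all timepoints. Most belonged to Crot, the peroxisomal carnitine octanoyltransferase, with 71, then Etfb with 50, Rxra, the partner of PPARA, with 46, Acsl1 with 41 and Abcd3 with 38. Fewest were found for Angptl4, with 1, and for Hadhb, Pdk2, Plin2 and Hsd17b4, with 2 each. Hadhb starts on the Hadha bait, so its 2 contacts are those of Hadha and count in both sets. By role, the median number of contacts was 27.5 for uptake and activation, 17 for the carnitine shuttle, 15 for regulators, 14.5 for mitochondrial beta-oxidation, 9 for peroxisomal and microsomal oxidation and 6 for ketogenesis.

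Of the 27 pathway promoters with at least 10 contacts, 1 had at least 2 times as many listings at ZT12 and ZT18 as at ZT0 and ZT6, and 0 had the reverse, against 1.68% and 1.81% of all 8819 baits with at least 10 contacts. That 1 was Lpin1, which encodes lipin 1, a phosphatidate phosphatase and coactivator of PPARA, with 2, 4, 10 and 10 contacts. Under the order of the study's summary Lpin1 reads 2, 10, 10 and 4, which is 14 listings at ZT12 and ZT18 against 12, and 0 of the 27 passed either limit. Next in this direction among the 27, chosen after their values were seen, were Fabp1, the liver fatty acid binding protein, with 8, 8, 16 and 13, and Creb3l3, a fasting-induced transcription factor, with 6, 7, 11 and 12. In the other order Fabp1 turned, with 21 listings at ZT12 and ZT18 against 24, and Creb3l3 had 19 against 17. The median share of listings at ZT12 and ZT18 was 49.3% over the 27 and 50% over all baits with at least 10 contacts, and 51.5% and 50.4% in the other order.

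**Figure D4:**
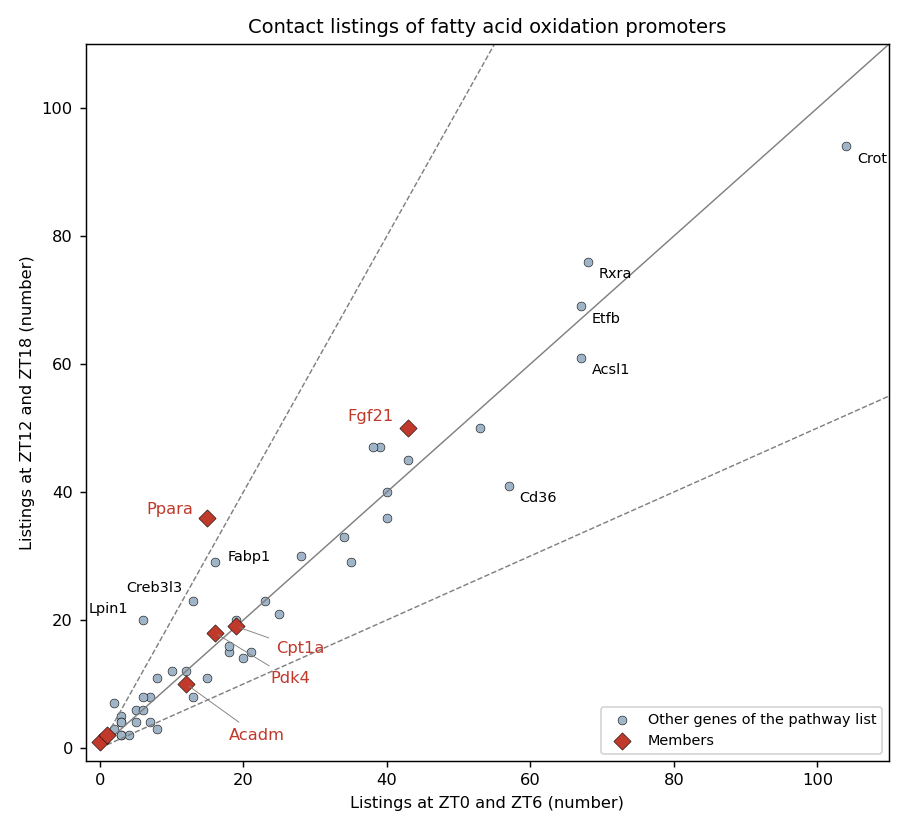
Listings of each promoter at ZT12 and ZT18 against those at ZT0 and ZT6 for the 7 members (diamonds) and 47 other promoters of the pathway list (circles). Hadhb starts on the Hadha bait, so its circle repeats the Hadha diamond. The solid line marks equal numbers and the dashed lines 2 times as many on either side. By the labels Ppara (15 and 36) and Lpin1 (6 and 20) are the promoters with at least 10 contacts above the upper dashed line, and most others lie near the solid line. Of those with fewer contacts, Hadh (2 and 7), Angptl4 (0 and 1) and Ehhadh (0 and 1) also lie above it. Acaa1b (8 and 3) lies below the lower dashed line. In the order of the study's summary neither Ppara nor Lpin1 would lie above the upper line (23 and 28, and 12 and 14).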

How the data were processed

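P-CHi-C reads of mouse liver were mapped to mm9 and filtered with HiCUP by the authors, who pooled each timepoint and then called interactions with CHiCAGO (versions are not given in the sources used here). The deposited values are CHiCAGO scores, 1 per pair of HindIII fragments and timepoint, with a minimum of 5. Read depth was not analysed here.

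Lists were read with pandas 2.3.3 in python 3.11.15. Pairs were treated as unordered, and a bait is a fragment in the first column of any list. All 129886 fragments on chromosomes of the reference equalled a HindIII fragment. Gene starts came from GENCODE vM1, as the 5′ end of each gene record. The members, the pathway list and the comparisons were chosen with earlier results of these data known. Genes named besides members are the ends of the 3 highest scores of each promoter, gene starts contacted at all 4 timepoints, contacts of at least 10 missing from a list, clock and pathway genes, the most similar bait, and the 5 pathway genes with most and fewest contacts. Gene starts that Ppara contacted at some timepoints, Gys1, Pigk, Fpgt, Slc44a5 and Asb17 were chosen with their values in view. Intervals of shares are 95% Wilson intervals from scipy 1.17.1. The merging of lists and the motif search were tested on simulated data. Alternatives were score minimums of 7 and 10, equal numbers of pairs, joined ends, other gene starts and the other order of timepoints.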

Additional observations from a re-analysis of the deposited data

How the results depend on the processing

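No paired analysis was possible because each list came from merged pools, and for the same reason no pool could be left out. At a score of at least 7 the promoters had 60 contacts instead of 91, with 29, 34, 36 and 39 in the lists of ZT0, ZT6, ZT12 and ZT18. With a minimum of 10 they had 19, with 12, 15, 13 and 15. At that minimum the order of timepoints seen over all contacts, with ZT12 and ZT18 above ZT0 and ZT6, was no longer present. The share listed at all timepoints was 25% at a minimum of 7, 84.2% for contacts that reached 10 at any timepoint and 60.4% with ends within 10 kb accepted, against 37.4%. No like share over all interactions is given for these alternatives. Leaving out 1 member at a time gave 32.2% (without Fgf21) to 42.6% (without Ppara). The median distance was 59.9 kb at a score of at least 10 instead of 87.9 kb, and the share with another promoter 73.7% instead of 51.6%. The Ppara share at ZT12 and ZT18 was 83.3% at a minimum of 7, 70.6% with ends within 10 kb joined and 54.9% in the order of totals of the study's summary, both alternatives added after seeing the data. In that order the totals of ZT6 and ZT18 changed places, from 57 and 68 to 68 and 57. For Pdk4 the share at ZT12 and ZT18 went from 52.9% to 40.0% at a minimum of 7, within its interval of 36.7 to 68.5%. Contacts present in the nucleus but scoring under 5 are not in the lists, so low numbers for Hadha and Ehhadh set no upper limit on their contacts.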
